A study of Mus musculus with 11 samples.

Results

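The polyamine genes described here are 8 genes of the 24319 in the deposited tables, chosen by symbol: Odc1, Srm, Sms, Amd1, Oaz1, Oaz2, Azin1 and Sat1. All 8 passed the filter on low values. They were measured by RNA sequencing in 11 mouse libraries on the C57BL/6J background. Leukemic cells, called B-ALL (B cell acute lymphoblastic leukemia), carried Ebf1+/- Pax5+/- and came from the lymph nodes of 3 mice, numbered 686, 713 and 760, each of which gave 2 libraries. The cells named dHet proB were Ebf1+/- Pax5+/- Rag2-/-. They gave 3 libraries and had been cultured from c-Kit+ fetal liver with SCF, Flt3 ligand and IL-7 over a feeder layer of OP9 stroma. The wt proB cells were Ebf1+/+ Pax5+/+ Rag2+/+, were sorted from bone marrow as the fraction called FrBC, and gave 2 libraries. No treatment and no age is given, and the loss of 1 copy of Ebf1 and of Pax5 is shared by the B-ALL and the dHet proB cells. Tissue, culture, Rag2 genotype and leukemia change together between the groups and cannot be told apart. In both comparisons with wt proB the Ebf1 and Pax5 genotype changes with them and cannot be told apart either.

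Polyamines are small positively charged molecules that bind nucleic acids and are needed for growth. Ornithine decarboxylase (Odc1) makes putrescine, S-adenosylmethionine decarboxylase (Amd1) makes the aminopropyl donor, and spermidine synthase (Srm) and spermine synthase (Sms) add aminopropyl groups in turn. Antizymes (Oaz1, Oaz2) bind ornithine decarboxylase and send it to the proteasome, and the antizyme inhibitor (Azin1) is an inactive relative of the decarboxylase that takes antizyme away from it. Spermidine/spermine N1-acetyltransferase (Sat1) starts the breakdown and export of polyamines. Odc1 and Srm are textbook targets of the transcription factor MYC, which is often raised in lymphoid tumours.

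Full antizyme is made only when the ribosome skips 1 base at an early stop codon, a step that polyamines promote. The stretch with that stop codon is shown because it is the control point of the pathway and because Oaz1 has a copy, Oaz1-ps, that the tables list as a gene of its own. These 57 bases were read from GENCODE M21 transcripts (build GRCm38), 5′ to 3′, with the stop codon in capitals. They lie in the coding exon of Oaz1 at chr10:80828270-80828326 on the plus strand, in the Oaz1-ps transcript at chr17:17345905-17345961 on the minus strand and in Oaz2 at chr9:65686247-65686303 on the plus strand.
Oaz1: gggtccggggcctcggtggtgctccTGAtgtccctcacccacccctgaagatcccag
Oaz1-ps: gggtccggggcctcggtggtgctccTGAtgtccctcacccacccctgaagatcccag
Oaz2: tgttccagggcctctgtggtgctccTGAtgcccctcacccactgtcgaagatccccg
Oaz1 and Oaz1-ps were the same at 57 of 57 positions, and Oaz1 and Oaz2 at 47 of 57.

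Amd1 has a still closer copy. The coding sequences of Amd1 and Amd2, an intronless gene, were 1002 bases each in GENCODE M21 and differed at 1 base. The 60 bases around that base are shown because they carry the only coding difference by which reads of Amd1 and Amd2 can be told apart. They lie at chr10:40290157-40290216 for Amd1 and chr10:35710735-35710794 for Amd2 (GRCm38), both on the minus strand, with the differing base in capitals.
Amd1: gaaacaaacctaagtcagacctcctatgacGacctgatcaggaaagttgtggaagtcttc
Amd2: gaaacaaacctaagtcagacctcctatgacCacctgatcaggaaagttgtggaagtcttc
Over whole transcripts, 82.8% of the 31-base words of Amd1 also occurred in other genes, and 81.9% occurred in Amd2. For Oaz1 the shares were 24% and, with Oaz1-ps, 22.5%. Seen from the copies, 90.9% of the words of Amd2 occurred in Amd1 and 95.3% of those of Oaz1-ps in Oaz1. Odc1 shared 31.3% of its words, for the most part with pseudogenes that the tables do not list, and Sms shared 18.8%. Oaz2, Srm, Sat1 and Azin1 shared between 5.28% and 12.1%. The values of Amd1, Amd2 and Oaz1-ps and, to a lesser degree, of Oaz1 and Odc1 are therefore uncertain as values of these genes alone.

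Promoter windows of 300 bases, from 250 before to 50 after a start, were at hand in RefSeq (GRCm38.p6) for 6 of the 8 genes, as 7 windows. Srm and Azin1 had no window and were not searched. The letters CACGTG, the E-box to which MYC and MAX bind, were searched in them; the motif reads alike on both strands. It was found in 1 of the 2 windows of Sms, 196 bases before that start, and in 7.15% of all windows of that length. The window of Odc1 did not hold these letters, and sequence outside the windows was not searched. The 60 bases of the Sms window around the motif lie at chrX:157492451-157492510 on the minus strand, and the motif is in capitals.
Sms: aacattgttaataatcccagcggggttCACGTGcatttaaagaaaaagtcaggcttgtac

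Values are FPKM, fragments scaled to transcript length and to the mapped fragments of the library, so levels can be compared between genes. FPKM sums ran from 505261 to 638953 per library, and depth is unknown because the tables hold no counts. B lineage markers were present in all libraries, with 7 of 7 above 1 FPKM. Markers of other cells differed between the groups. The summed FPKM of 8 neutrophil genes was 399 to 423 in wt proB, 0.371 to 47.3 in B-ALL and 0 to 3.15 in dHet proB, where Elane and Mpo were listed at 0. The sum of 5 plasmacytoid dendritic cell genes was 399 to 599 in wt proB, 98.9 to 119 in B-ALL and 77.3 to 88.5 in dHet proB. The sum of 9 immediate early and stress genes was 2012 to 2914 in wt proB and 291 to 625 in all other libraries. Macrophage and monocyte genes (5) summed to 179 to 239 in wt proB, 31.1 to 231 in B-ALL and 13.7 to 49.4 in dHet proB, and NK cell genes (3) to 26.3 to 27.9, 31.7 to 331 and 2.91 to 9.52. Proliferation genes (6) summed to 818 to 880 in wt proB, 753 to 952 in B-ALL and 469 to 1391 in dHet proB, and red cell genes (4) to 7.98 to 19.7, 4.88 to 286 and 0.713 to 0.984. T cell genes (4) summed to 6.40 to 9.49 in wt proB, 3.34 to 12.5 in B-ALL and 0 to 0.245 in dHet proB, and genes of the stroma stayed at or under 1.27 in every library. The part of these differences in the results below was not tested. In bulk RNA, fewer cells of a type and less RNA per cell cannot be told apart.

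Fold changes are differences of log2(FPKM + 1) between group means, with the mouse as the replicate in B-ALL, and a gene was called at an adjusted p under 0.05 (limma, Benjamini-Hochberg over 11110 genes). In B-ALL against wt proB, 0 of the 8 genes were called, 1 (Sat1) had an unadjusted p under 0.05, and 18.2% of all genes tested were called (8.15% higher, 10% lower). In B-ALL against dHet proB, 2 of 8 were called, both higher, against 25.5% of all genes (14.5% higher, 11% lower). In dHet proB against wt proB, 0 of 8 were called, 1 (Azin1) had an unadjusted p under 0.05, and 8.68% of all genes were called (2.18% higher, 6.5% lower). The share of polyamine genes called was thus at or below that of all genes in each comparison. Their median log2 fold change was 0.076, 0.17 and 0.019 in this order, beside -0.023, 0.035 and -0.037 over all genes. Each pair of comparisons shares a group of samples.

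**Figure D1:**
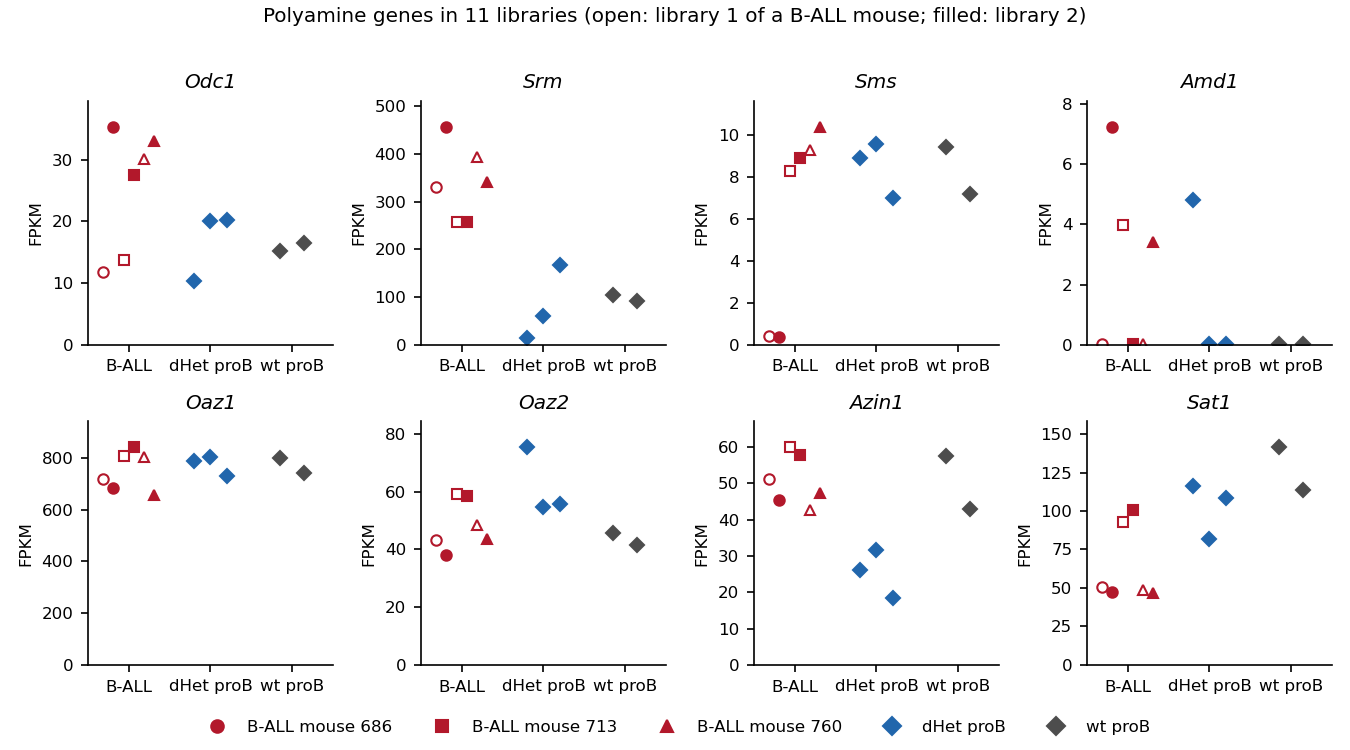
FPKM (y axis, linear, from 0) of the 8 polyamine genes in each of the 11 libraries, by group; open symbols are library 1 and filled symbols library 2 of a B-ALL mouse. All 6 B-ALL libraries lie above all others for Srm, Sms is near 0 only in mouse 686, and Oaz1 varies little.

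Of the synthesis genes, Srm had the largest difference. Its FPKM was 332 and 456 (mouse 686), 257 and 257 (mouse 713) and 393 and 342 (mouse 760). It was 13.2, 59.4 and 168 in the dHet proB libraries and 104 and 90.9 in wt proB. Every B-ALL library was above every other library, while the wt proB libraries fell within the range of the dHet proB libraries. Group means were 339 ± 72.5 (SD, n = 3 mice), 80.1 ± 79.3 (SD, n = 3 libraries) and 97.2 ± 8.88 (SD, n = 2 libraries). Srm was higher in B-ALL than in dHet proB by 2.67 on the log2 scale (SE 0.75, adjusted p = 0.0362), or 6.34-fold. Against wt proB the difference was 1.77 (SE 0.84, adjusted p = 0.178), and its 95% interval ran from -0.18 to 3.71. At this same difference it was called in 3 of 25 other settings, without dHet proB library 1 (adjusted p = 0.0348), in a fit of only the groups compared (adjusted p = 0.0082) and with the library number as a block (adjusted p = 0.0417). Library number 3 occurs only in dHet proB, so the block takes library 3 of that group (168 FPKM) out of the spread. With the block the difference from dHet proB was 3.51 instead of 2.67. The wide spread among the dHet proB libraries enters both tests because the fit shares 1 spread per gene. Without dHet proB library 1 the difference from dHet proB was 1.72 (adjusted p = 0.0445). The call was lost in 8 of 25 other settings, among them without mouse 686 (2.55, adjusted p = 0.104), without mouse 760 (2.59, adjusted p = 0.081), without dHet proB library 2 (2.77, adjusted p = 0.0672) and without either wt proB library (2.67, adjusted p = 0.0608 each).

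Odc1, the enzyme of the first step, was at 11.7 and 35.3 FPKM (mouse 686), 13.8 and 27.5 (mouse 713) and 30.0 and 33.1 (mouse 760). It was at 10.4, 20.0 and 20.1 in dHet proB, with wt proB at 15.2 and 16.4. The groups overlap, because library 1 of mice 686 and 713 fell within the range of the other groups. The log2 difference was 0.53 against wt proB (95% interval -0.20 to 1.27, adjusted p = 0.273), 0.50 against dHet proB (-0.15 to 1.16, adjusted p = 0.225) and 0.03 for dHet proB against wt proB (adjusted p = 0.979). The order of its group means, B-ALL, dHet proB, wt proB, rests on neighbours that did not differ beyond their spread. Taken from library 2 of each mouse alone, Odc1 was called higher in B-ALL than in dHet proB (0.94, adjusted p = 0.0337), and from library 1 alone the difference was 0.07. Library 1 was below library 2 by 1.51 on the log2 scale in mouse 686 and by 0.95 in mouse 713, against 0.13 in mouse 760. Between the libraries of a mouse, 3.92% of all genes in mouse 686, 1.78% in mouse 713 and 0.36% in mouse 760 differed by 2-fold or more in FPKM + 1. Of those 436 genes in mouse 686, 415 were lower in library 1, as Odc1 was. The part of this difference between libraries in the result for Odc1 was not tested beyond these single-library fits.

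Amd1 was listed near 0, at 0.0091 to 0.014 FPKM, in 7 libraries and at 3.41 to 7.24 in 4. The 4 were library 2 of mouse 686 (7.24), library 1 of mouse 713 (3.97), library 2 of mouse 760 (3.41) and dHet proB library 1 (4.81). In each mouse, then, 1 of the 2 libraries was near 0, and Amd1 differed by more between libraries of a mouse than between groups. Its log2 difference was 1.24 against wt proB (adjusted p = 0.240) and 0.40 against dHet proB (adjusted p = 0.669).

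Amd2, the near-identical copy, was present in every library. Its FPKM was 56.9 and 42.9 (mouse 686), 20.5 and 23.6 (mouse 713) and 28.4 and 27.7 (mouse 760), 5.69, 11.5 and 12.5 in dHet proB, with wt proB at 13.1 and 10.8. The lowest B-ALL library was above the highest of the others. Amd2 was higher in B-ALL than in dHet proB by 1.63 (SE 0.36, adjusted p = 0.0152), and against wt proB the difference was 1.33 (SE 0.40, adjusted p = 0.0530). Summed over both copies, a setting added after the data were seen, the decarboxylase exceeded wt proB in B-ALL by 1.43 (SE 0.31, adjusted p = 0.0177) and dHet proB by 1.47 (SE 0.28, adjusted p = 0.00913). It differed by -0.04 between dHet proB and wt proB (adjusted p = 0.963). The summed FPKM was 23.7 to 56.9 in B-ALL, 10.5 to 12.6 in dHet proB and 10.8 to 13.1 in wt proB, with no overlap of B-ALL with either group. The call against wt proB was lost without wt proB library 1 (1.56, adjusted p = 0.0928) or library 2 (1.30, adjusted p = 0.163).

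**Figure D2:**
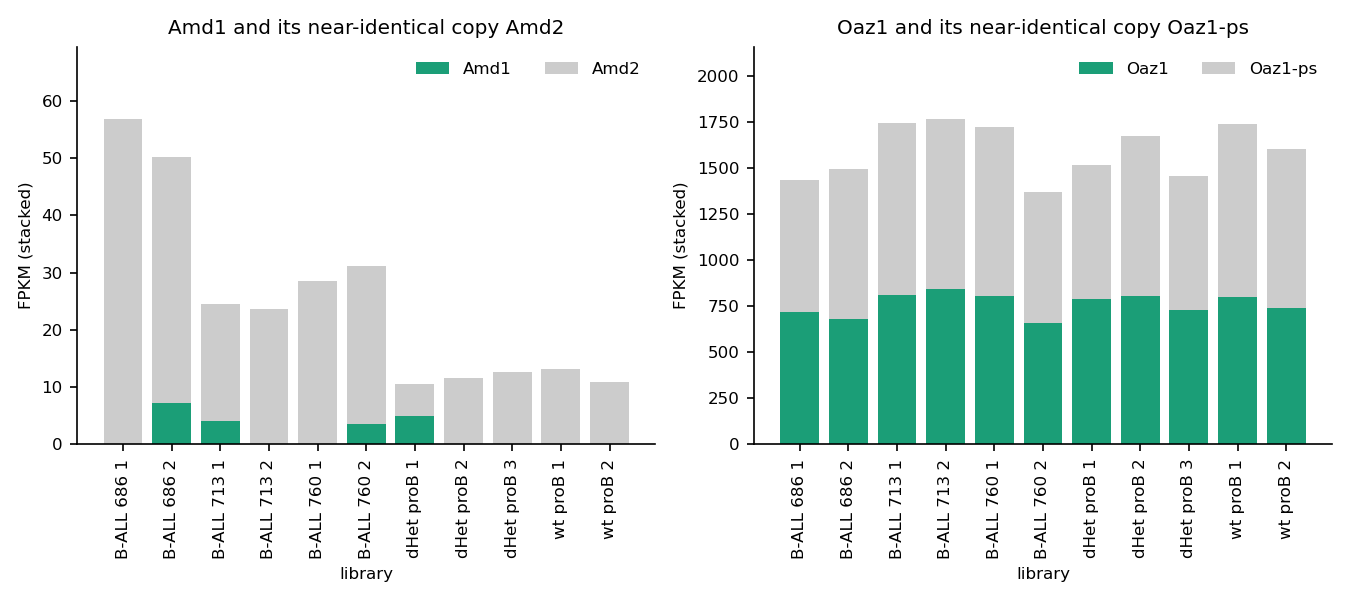
Stacked FPKM (y axis, linear, from 0) of Amd1 and Amd2 (left) and of Oaz1 and Oaz1-ps (right) in each library. The Amd1 part is visible in 4 of 11 libraries, while the stacked height is above 23 in all B-ALL libraries and at most 13.1 in the others.

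Sms was the most uneven of the 8 between the leukemias. It stood at 0.405 and 0.359 FPKM (mouse 686), 8.28 and 8.93 (mouse 713) and 9.30 and 10.4 (mouse 760). It was at 8.88, 9.58 and 7.02 in dHet proB, with wt proB at 9.43 and 7.16. Only the libraries of mouse 686 were low, and the other 9 libraries lay between 7.02 and 10.4, with a median 23.4 times the mean of mouse 686. Between the mice, tested against the spread between libraries and not between animals, Sms differed with an adjusted p of 7.58e-06 (limma F test). The call held in all 18 other settings of that test. The log2 difference of mouse 686 was -2.80 from mouse 713 and -2.97 from mouse 760. Across the groups Sms was not called, and its log2 difference against wt proB turned from -0.82 to 0.14 without mouse 686, and against dHet proB from -0.85 to 0.11.

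Sms lies on the X chromosome, as Sat1 does, and its neighbours did not share the low value. In the RefSeq gene order (GRCm38.p6), the nearest tested genes are Prdx4, Acot9 and Sat1 on one side and Mbtps2, Yy2 and Rps6ka3 on the other. Mbtps2 was at 7.91 and 6.43 FPKM in mouse 686 and at 3.02 to 5.86 in the other 9 libraries. Prdx4 was at 185 and 185 in mouse 686 and at 110 to 279 elsewhere. Over the 5 nearest tested genes on each side, mouse 686 differed from the mean of the other mice by between -0.999 (Ubqln2) and 0.95 (Spin2c) on the log2 scale, against -2.88 for Sms. Ordered by that difference, Sms was number 2 of 325 tested X genes and number 11 of 11110 tested genes from the low end.

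**Figure D3:**
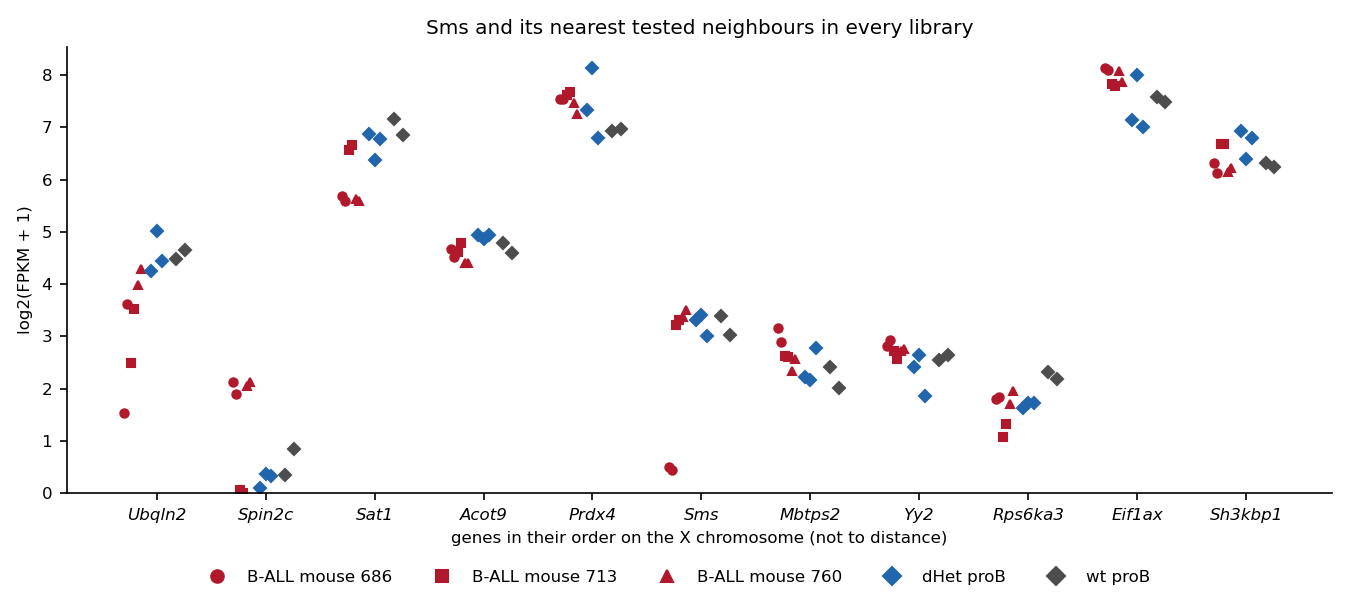
log2(FPKM + 1) (y axis) of Sms and the 5 nearest tested genes on each side, in their order on the X chromosome and not to distance; each point is 1 library. For Sms the libraries of mouse 686 lie under 1 and the other 9 libraries above 3, while no neighbour is near 0 in both libraries of mouse 686.

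The antizyme Oaz1 was the most abundant of the 8 in every library. It was at 718 and 681 FPKM (mouse 686), 808 and 840 (mouse 713) and 804 and 655 (mouse 760), 788, 804 and 729 in dHet proB, with wt proB at 798 and 740. All groups overlapped. The log2 difference was -0.04 against wt proB (95% interval -0.44 to 0.36), -0.05 against dHet proB (-0.40 to 0.31) and 0.01 for dHet proB against wt proB (-0.39 to 0.41), with adjusted p-values of 0.846 to 0.985. Its sign turned in several settings. Oaz1-ps was at 711 to 941 FPKM, and the sum of both differed by -0.08 between B-ALL and wt proB (-0.55 to 0.39).

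Oaz2, the second antizyme, was at 43.3 and 38.2 FPKM (mouse 686), 59.2 and 58.6 (mouse 713) and 48.3 and 43.6 (mouse 760). It was at 75.3, 54.7 and 55.6 in dHet proB, with wt proB at 45.6 and 41.6. Every dHet proB library was above both wt proB libraries, but not above those of mouse 713. The log2 difference was 0.48 for dHet proB against wt proB (SE 0.21, adjusted p = 0.223), -0.35 for B-ALL against dHet proB (adjusted p = 0.204) and 0.13 for B-ALL against wt proB (adjusted p = 0.681).

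Azin1, which frees the decarboxylase from antizyme, had its low values in the cultured cells. It was at 51.1 and 45.5 FPKM (mouse 686), 59.9 and 57.8 (mouse 713) and 42.7 and 47.2 (mouse 760). It was at 26.2, 31.6 and 18.3 in dHet proB, with wt proB at 57.5 and 43.0. The dHet proB libraries were below all others, and B-ALL and wt proB overlapped. Group means were 50.7 ± 7.26 (SD, n = 3 mice), 25.4 ± 6.68 (SD, n = 3 libraries) and 50.2 ± 10.3 (SD, n = 2 libraries). Azin1 was higher in B-ALL than in dHet proB by 0.99 (SE 0.22, adjusted p = 0.0172), or 1.99-fold. The difference of dHet proB from wt proB was -0.97 (SE 0.25, adjusted p = 0.0517), which 7 of 25 other settings called, and that of B-ALL from wt proB was 0.02 (95% interval -0.56 to 0.59). The call against dHet proB was lost without dHet proB library 1 (1.03, adjusted p = 0.0507) and without mouse 686 (1.02, adjusted p = 0.0503). Markers of the OP9 feeder cells were at or under 0.751 summed FPKM in dHet proB, with Dcn and Lum listed at 0. The group means of Col1a1 (0.228) and Col1a2 (0.119) were higher there than in B-ALL (0.111 and 0.0490) and wt proB (0.0657 and 0). Those of Col3a1 and Pdgfrb were highest in B-ALL (0.0270) and in wt proB (0.0392). The T cell, NK cell, red cell and plasmacytoid sums given above were lowest in dHet proB, as Azin1 was, and their part in this difference was not tested. Single plasmacytoid genes did not all follow their sum. Tcf4 was at 41.8 to 45.9 FPKM in dHet proB and 15.5 to 24.4 in B-ALL. Ccr9 was at 0.263 to 4.08 and 0.0228 to 0.221. Bst2 (31.5 to 38.1 against 55.8 to 101), Siglech and Ly6c2 were lower in dHet proB than in B-ALL. Nkg7 of the NK list was at 328 and 265 in mouse 760 and at 21.1 to 38.5 in the other mice. Klf1 of the red cell list overlapped B-ALL. The neutrophil and macrophage sums were also low in dHet proB but overlapped those of B-ALL.

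Sat1, the acetyltransferase of the breakdown route, was at 50.7 and 47.5 FPKM (mouse 686), 93.1 and 101 (mouse 713) and 48.4 and 47.0 (mouse 760). It was at 116, 81.9 and 109 in dHet proB, with wt proB at 141 and 114. Every B-ALL library was below both wt proB libraries, whereas mouse 713 fell within the range of dHet proB. The group means were 64.5 ± 28.0 (SD, n = 3 mice), 102 ± 18.1 (SD, n = 3 libraries) and 128 ± 19.4 (SD, n = 2 libraries), an order in which dHet proB and wt proB overlapped. Against wt proB the log2 difference was -1.05 (SE 0.32, 95% interval -1.78 to -0.31, adjusted p = 0.0562), and 7 of 25 other settings called it. Against dHet proB it was -0.72 (SE 0.29, adjusted p = 0.0992). Without mouse 713, Sat1 was lower in B-ALL than in wt proB (-1.37, adjusted p = 0.00528) and than in dHet proB (-1.05, adjusted p = 0.0101). The neutrophil, plasmacytoid and immediate early sums given above were highest in the wt proB libraries, as the group mean of Sat1 was. For Sat1 itself, dHet proB library 1 (116) was above wt proB library 2 (114). The part of these sums in the difference of Sat1 was not tested.

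Between the mice, 2 of the 8 genes were called, Sms and Sat1, against 22.3% of 11293 genes tested (limma F test). Sat1 differed with an adjusted p of 0.00454, with mouse 713 at a mean of 96.8 FPKM against 49.1 in mouse 686 and 47.7 in mouse 760. That call was lost without library 2 of mouse 713 (adjusted p = 0.0619). Oaz2 had the next smallest adjusted p (0.113) and was also highest in mouse 713, at 58.9 FPKM against 40.7 and 45.9. With the library number as a block Oaz2 was called as well (adjusted p = 0.0494), which made 3 of 8, and likewise without dHet proB library 1 (adjusted p = 0.031). For Odc1, Srm, Amd1, Oaz1 and Azin1 the adjusted p ran from 0.475 to 0.966.

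**Figure D4:**
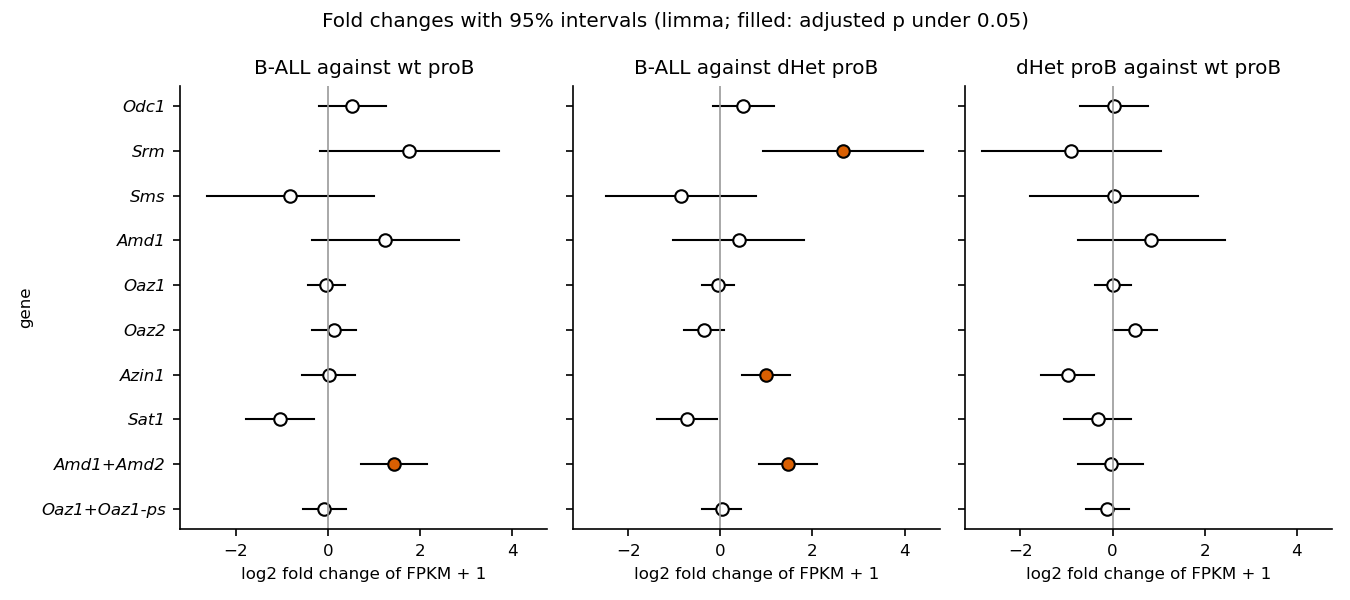
log2 fold change of FPKM + 1 (x axis) with its 95% interval for each polyamine gene and for the summed copies, in 3 comparisons that share groups; filled points had an adjusted p under 0.05. Srm and Azin1 are filled in B-ALL against dHet proB, the summed Amd1 and Amd2 in both comparisons of B-ALL, and no point in dHet proB against wt proB.

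The ratio of Srm to Sat1 within a library was higher in B-ALL than elsewhere, while the proB groups overlapped. Srm over Sat1 was 6.54 and 9.61 (mouse 686), 2.76 and 2.56 (mouse 713) and 8.11 and 7.28 (mouse 760). It was 0.114, 0.726 and 1.54 in dHet proB, with wt proB at 0.732 and 0.798, so that every B-ALL library was above every other. Odc1 over Oaz1, the decarboxylase per antizyme, was 0.0163 to 0.0518 in B-ALL, 0.0131 to 0.0276 in dHet proB and 0.0191 to 0.0222 in wt proB, with overlap. These are ratios of RNA levels and were not tested.

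Myc itself was at 445 and 417 FPKM (mouse 686), 209 and 203 (mouse 713) and 367 and 410 (mouse 760), at 9.39, 42.3 and 290 in dHet proB, with wt proB at 82.5 and 68.4. It was not called in any comparison (log2 2.10 against wt proB, adjusted p = 0.229; 2.68 against dHet proB, adjusted p = 0.0886). Srm followed the same order over the dHet proB libraries, lowest in library 1 and highest in library 3. Over the 8 units (3 mice and 5 proB libraries), the Pearson r of log2(FPKM + 1) with Myc was 0.98 for Srm, 0.82 for Odc1, 0.27 for Azin1 and -0.23 to -0.61 for the other 5. The units share their groups, so these values only describe the likeness. By the same measure the genes most like Srm were Nop56 (0.99), Ndufaf4 (0.99) and Gps1 (0.98), and those most like Odc1 were Slc7a5 (0.97), Gar1 (0.94) and Kctd20 (0.93). Those most like Azin1 were Wdr45b (0.98), Ptpn6 (0.97) and Rpp21 (0.96), and those most like Sat1 were Blvrb (0.98), S1pr1 (0.98) and Chd9 (0.97). For Sms they included Bst1 (0.96) and Ube2l6 (0.94), for Oaz1 they were Ykt6 (0.97), Chchd10 (0.92) and Tatdn3 (0.92), and for Oaz2 Mpst (0.96), Commd9 (0.95) and Minpp1 (0.94). For Amd1, whose values are uncertain, they were Vps53 (0.94), Oxa1l (0.93) and Ppp2r3c (0.89). Among the 8 genes themselves, Odc1 and Srm were the most alike (0.83) and Odc1 and Sat1 the least (-0.74).

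**Figure D5:**
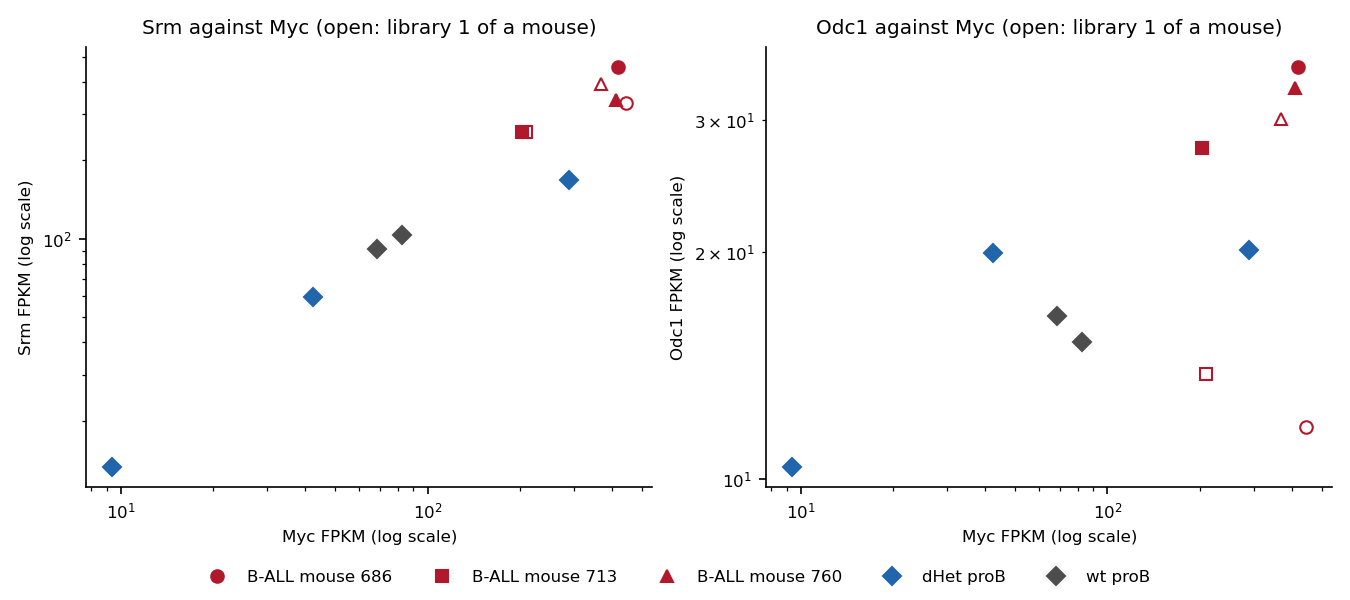
FPKM of Srm (left) and Odc1 (right) against FPKM of Myc in the 11 libraries, all axes on a log scale; open symbols are library 1 of a B-ALL mouse. Srm is lowest, with Myc, in dHet proB library 1 (13.2 and 9.39) and highest in B-ALL libraries, whereas library 1 of mice 686 and 713 has low Odc1 at high Myc.

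The genes that supply the pathway were taken from lists chosen with earlier results known. Of 11 genes of arginine and ornithine supply, 6 passed the filter. In B-ALL against wt proB 1 was higher and 1 lower, beside 8.15% and 10% of all genes. Against dHet proB 2 were higher and 0 lower, beside 14.5% and 11%. For dHet proB against wt proB 0 were higher and 1 lower, beside 2.18% and 6.5%. Ass1, argininosuccinate synthase, was at 110 to 140 FPKM in B-ALL, 22.2 to 30.0 in dHet proB and 35.0 to 41.4 in wt proB. The B-ALL level exceeded wt proB by 1.66 (SE 0.18, adjusted p = 0.00118) and dHet proB by 2.27 (SE 0.16, adjusted p = 0.000366). Slc7a1, the main carrier of cationic amino acids, was higher in B-ALL than in dHet proB by 1.39 (adjusted p = 0.0325), at 12.02 to 20.1 against 2.198 to 8.47 FPKM. Against wt proB it was not called (0.99, adjusted p = 0.141). Gatm, which uses arginine to make creatine precursor, was at 1.29 and 1.41 FPKM in wt proB and at or under 0.110 in all other libraries. It was lower in B-ALL (-1.14, adjusted p = 0.00351) and in dHet proB (-1.19, adjusted p = 0.00351). Gatm passed the filter only through the 2 wt proB libraries, where it was just above the minimum of 1 FPKM. Its 2 calls of lower therefore rest on the group that let it into the test. The remaining tested genes of this list were not called in any comparison. Their log2 differences ran from -0.22 to 0.66 in B-ALL against wt proB and from 0.16 to 0.43 against dHet proB. Arg1 and Arg2, the arginases that make ornithine, did not pass the filter and were at or under 0.292 FPKM in every library.

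Spermidine and spermine synthesis release methylthioadenosine, which a salvage route turns back into methionine. Of 10 genes of this methionine cycle, 9 were tested, and 4 were higher and 1 lower in B-ALL than in wt proB, where 8.15% of all genes tested were higher and 10% lower. Mtap, the phosphorylase that opens the salvage, was at 41.6 to 53.6 FPKM in B-ALL, 9.07 to 19.8 in dHet proB and 13.6 to 16.2 in wt proB. Its rise in B-ALL was 1.59 over wt proB (SE 0.31, adjusted p = 0.0116) and over dHet proB 1.57 (SE 0.27, adjusted p = 0.0072). The next enzyme, Mri1, was higher by 0.98 (adjusted p = 0.0194) and 1.20 (adjusted p = 0.00561). Ahcy, which clears S-adenosylhomocysteine, was higher than in wt proB by 1.04 (adjusted p = 0.0461), and Enoph1, a later salvage enzyme, was higher than in dHet proB by 0.86 (adjusted p = 0.0185). The member of the list that fell against wt proB was Apip, another salvage enzyme (-0.93, adjusted p = 0.0426). Against dHet proB 3 of 9 were higher and 0 lower, beside 14.5% and 11% of all genes. Between dHet proB and wt proB 0 of 9 were called by limma, with 1 at an unadjusted p under 0.05, beside 2.18% of all genes higher and 6.5% lower.

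Spermidine is the donor for hypusine, a modified residue found in the translation factor eIF5A. Eif5a was at 3298 to 4523 FPKM in B-ALL, 1138 to 2162 in dHet proB and 1864 to 2024 in wt proB. It was higher in B-ALL than in dHet proB by 1.39 (SE 0.27, adjusted p = 0.0106), and against wt proB the difference was 1.03 (SE 0.31, adjusted p = 0.0514). Dohh, the hydroxylase of the second step, was higher against wt proB by 0.91 (adjusted p = 0.00484) and against dHet proB by 0.93 (adjusted p = 0.00303). Dhps, which carries out the first step, and Eif5a2 were not called. Of these 4 genes, 1 was called in B-ALL against wt proB and 2 against dHet proB, beside 18.2% and 25.5% of all genes. Of 8 genes of polyamine oxidation, acetylation and transport, 5 were tested. Slc3a2, named as a polyamine carrier and as the heavy chain of amino acid exchangers, was higher in B-ALL than in dHet proB by 1.07 (adjusted p = 0.0073). It was the only 1 of the 5 called there, beside 25.5% of all genes. Against wt proB 0 of the 5 were called, beside 18.2% of all genes, and 1 had an unadjusted p under 0.05. Oaz3, the antizyme of the testis, and Azin2 did not pass the filter and were at or under 0.293 FPKM in every library.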

How the data were processed

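The submitters' processing notes name STAR 2.5.3a, bcl2fastq (0.3.1 and 2.20.0.422), Cuffnorm 2.2.1, Cuffdiff and Cufflinks 2.2.1, with build mm9. The authors deposited 1 table of FPKM per library for 24319 gene symbols; no counts are in them, and the annotation is not given in the sources used here. Cufflinks estimates how reads shared by copies are divided, which bears on Amd1, Amd2, Oaz1 and Oaz1-ps. Values were transformed to log2(FPKM + 1), which shrinks changes of low genes, and the libraries of a mouse were averaged. Genes at 1 FPKM or more in at least 2 of 8 units were tested (11110) with limma 3.58.1 (R 4.3.3), with all 3 groups in 1 fit with a mean-variance trend, two-sided. The mice were compared by an F test on 11 libraries in 5 groups (11293 genes). Within B-ALL, same-numbered libraries deviated together in mice 686 and 713 (r of 0.64). For mouse 760 with mice 686 and 713 r was only 0.135 and 0.207. The labels do not explain this, so a fit with the library number as a block is given where it changes a call. Number 3 occurs only in dHet proB, so that fit takes library 3 of dHet proB out of the spread, and its calls carry this limit. Scripts were tested on simulated data. Whether the proB libraries are from separate animals or cultures is not in the labels, so their p-values measure only a spread between libraries that may be technical. The sample used as dHet proB library 3 has that number in its title and another in its source name. The members and lists were chosen with earlier results of these data known. Named genes were all members, Myc, up to 3 called genes per list and comparison with the largest change, and the 3 genes most like each member; a gene that this rule names is not reported here. Apip, outside that rule, was named as the only lower gene of its list against wt proB. Sequences came from GENCODE M21 and RefSeq tables (GRCm38), not from mm9.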

Additional observations from a re-analysis of the deposited data

How the results depend on the processing

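The counts of polyamine genes called were small and moved with the processing. Against wt proB the count was 0 and became 1 after rescaling to TPM, after quantile normalization, with library 1 of each mouse and with the mouse as a random effect, and 2 in a fit of only the groups compared; leaving out a library or mouse gave 0 to 2. Against dHet proB it was 2 and became 1 with no filter, with quantile normalization and with only the groups compared, and 3 with TPM and with library 2 of each mouse; leaving out gave 0 to 3. For dHet proB against wt proB it was 0 and became 1 with TPM, quantile normalization, library 2 of each mouse and the random effect; leaving out gave 0 to 1. Between the mice it was 2, and 1 to 3 when libraries were left out. Over all genes, 2017, 2832 and 964 were called in the 3 comparisons; leaving out gave 195 to 2460, 1393 to 2965 and 76 to 1251, with the lowest counts of the first and the last without a wt proB library, and a minimum of 5 FPKM gave 566 for dHet proB against wt proB. The share of calls that were higher went from 44.9% to 23.8% (B-ALL against wt proB) and from 57% to 38.8% (against dHet proB) with TPM, from 57% to 46.5% and, for dHet proB against wt proB, from 25.1% to 41.8% with quantile normalization, and from 44.9% to 32.5% with no filter. TPM moved the median of all genes from -0.023 to -0.22 and from 0.035 to -0.12.

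Of the log2 fold changes, 667 kept direction and side of the threshold, 25 came to pass it, 12 no longer passed it and 48 turned sign, all of values that were not called. With TPM, against wt proB, Oaz2 was -0.065 and Azin1 -0.18; against dHet proB Oaz1 with Oaz1-ps was -0.15; for dHet proB against wt proB Oaz1 was -0.014. With quantile normalization Azin1 against wt proB was -0.12, Oaz1 with Oaz1-ps against dHet proB -0.12, and for dHet proB against wt proB Oaz1 was -0.19 and Amd1 with Amd2 0.062. With library 1 of each mouse Oaz1 was 0.014 against wt proB and 0.0043 against dHet proB, and Amd1 -0.079 against dHet proB; with library 2 Oaz1 with Oaz1-ps was -0.011. With the copies summed, a setting chosen after seeing the data, Oaz1 was 0.031 against dHet proB and -0.11 for dHet proB against wt proB, and Amd1 -0.043 there. Leaving out 1 library or mouse gave, against wt proB, -0.19 to 0.22 for Azin1, -0.11 to 0.015 for Oaz1, -1.34 to 0.14 for Sms and -0.011 to 0.25 for Oaz2. Against dHet proB it gave -0.11 to 1.24 for Amd1, -0.045 to 0.088 for Oaz1 with Oaz1-ps, -0.12 to 0.0012 for Oaz1 and -1.37 to 0.11 for Sms. For dHet proB against wt proB it gave -1.74 to 0.042 for Srm, -0.15 to 0.21 for Sms, -0.045 to 0.063 for Oaz1, -0.17 to 0.088 for Amd1 with Amd2 and -0.12 to 0.32 for Odc1. The cause of these changes was not tested.

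Over all 20 same-numbered pairs, within B-ALL and across groups, r ran from -0.13 to 0.64, with 9 above 0.1. Each pair of mice entered with the same r for both library numbers, and the highest r was between mice 686 and 713. Between libraries of different groups r ran only from -0.13 to 0.11, so the numbers were not taken to pair samples of different groups. With the replicate block, 2 polyamine genes were called against wt proB, Amd1 was -0.022 and Oaz1 with Oaz1-ps -0.011 against dHet proB, Odc1 was -0.12 for dHet proB against wt proB, 3 polyamine genes were called between the mice, and 2333, 2402 and 916 genes were called in all.

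Depth is unknown, so no counting error can be given, and the number of mice and libraries limits the precision of every comparison.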
